A study of Homo sapiens with 39 samples.

Results

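RNA polymerases I, II and III are the nuclear enzymes that copy DNA into RNA, and the genes described here encode their subunits. The members were chosen by name alone, as genes whose symbol begins with POLR1, POLR2 or POLR3 followed by a letter. A whole-genome CRISPR knockout library held 30 of them among 19101 genes tested, and an epigenetic library held 3, POLR2A, POLR2D and POLR2I, among 1115 genes tested. All cells were A375, a human melanoma line driven by mutant BRAF, and carried a knockout of MED12 or of MED23. Both proteins belong to Mediator, which relays signals from transcription factors to polymerase II. Guides integrated in genomic DNA were amplified by PCR and counted by sequencing, so a guide whose cells grow poorly takes a smaller share of the reads with time.

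The whole-genome library was screened in MED12 knockout cells at day 0, at day 8 and at day 14, with the later days in DMSO, the solvent control, or in 2 µM vemurafenib, an inhibitor of mutant BRAF. The epigenetic library was screened in MED12 knockout cells in the same 5 conditions. It was also screened in MED23 knockout cells at day 0 and at day 14, in DMSO or in 1 µM vemurafenib. Each of the 13 groups held 3 libraries. Every group, day 0 and DMSO included, carried the Mediator knockout, so no value below compares knockout with intact cells. Whether the knockout lines were single clones, and whether the 3 libraries of a group came from separate cultures, is not given in the labels, so p-values measure only the spread between these libraries, which may be technical.

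Polymerase I makes the large ribosomal RNA precursor, polymerase II makes messenger RNA and many small nuclear RNAs, and polymerase III makes transfer RNA and the 5S ribosomal RNA. Each enzyme has a pair of large subunits that form the active site, a set of small subunits used by all of the enzymes, an assembly pair, and a stalk and peripheral subunits of its own. Proliferating cells need all of these enzymes, and most of their subunits have no substitute.

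By this textbook membership, the 30 genes fall into 7 classes. POLR1A, POLR1B and POLR1E are specific to polymerase I, and POLR1C and POLR1D are the assembly pair of polymerases I and III. POLR2E, POLR2F, POLR2H, POLR2K and POLR2L serve all 3 polymerases. POLR2A, POLR2B, POLR2C, POLR2D, POLR2G, POLR2I and POLR2J are specific to polymerase II. Those specific to polymerase III include POLR3A, POLR3B, POLR3C, POLR3D, POLR3E, POLR3F and POLR3K. POLR3G and POLR3GL are alternative forms of 1 polymerase III subunit and were kept apart, as were POLR2J2 and POLR2J3, copies of POLR2J, with POLR2M, a polymerase II associated protein. The copies are near-identical, and whether their guides share target sites was not checked, so their values are uncertain. Further subunits carry other symbols in the library (TWISTNB, CD3EAP, ZNRD1 and CRCP) and are described after the members.

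The whole-genome library had 4 guides per member, and 117 of the 120 guides passed the filter on low counts, which left 27 members with 4 guides and POLR2F, POLR2J and POLR3C with 3. The epigenetic library had 10 guides per member, all tested. Libraries held 47766947 to 87591804 reads in the whole-genome screen, 16385695 to 20814734 in the epigenetic screen of MED12 knockout cells and 22846325 to 28994690 in that of MED23 knockout cells. The spread between libraries of a group grew with time in MED12 knockout cells. The median SD of a guide's log2 CPM (reads scaled to library size) in the whole-genome screen was 0.35 at day 0 and 1.79 to 2.07 at day 14. It was, in MED23 knockout cells, 0.14 at day 0 and 0.41 at day 14. The labels name no molecular identifiers, and reads made by PCR do not count separate molecules.

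Guides of the members were already scarce at day 0 in MED12 knockout cells. In the whole-genome screen the median member guide stood at 2.71 to 3.22 CPM in the 3 day-0 libraries, against 6.15 to 6.29 CPM for all guides and 19.7 to 20.4 CPM for the untargeted control guides. By day 14 in DMSO it stood at 0.382, 0.412 and 0.807 CPM, and the median over all guides at 5.04 to 5.18 CPM. In the epigenetic screen of MED12 knockout cells the 30 guides of the 3 members had a median of 26.0 to 30.9 CPM at day 0, below the 55.7 to 56.0 CPM of all guides. The same guides began level with the library in MED23 knockout cells, at 51.4 to 55.7 CPM against 52.7 to 52.8 CPM. The screens therefore differ in their starting level, and a change from day 0 leaves out whatever was lost before it. The time between delivery of the libraries and day 0 is not given in the labels.

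**Figure D1:**
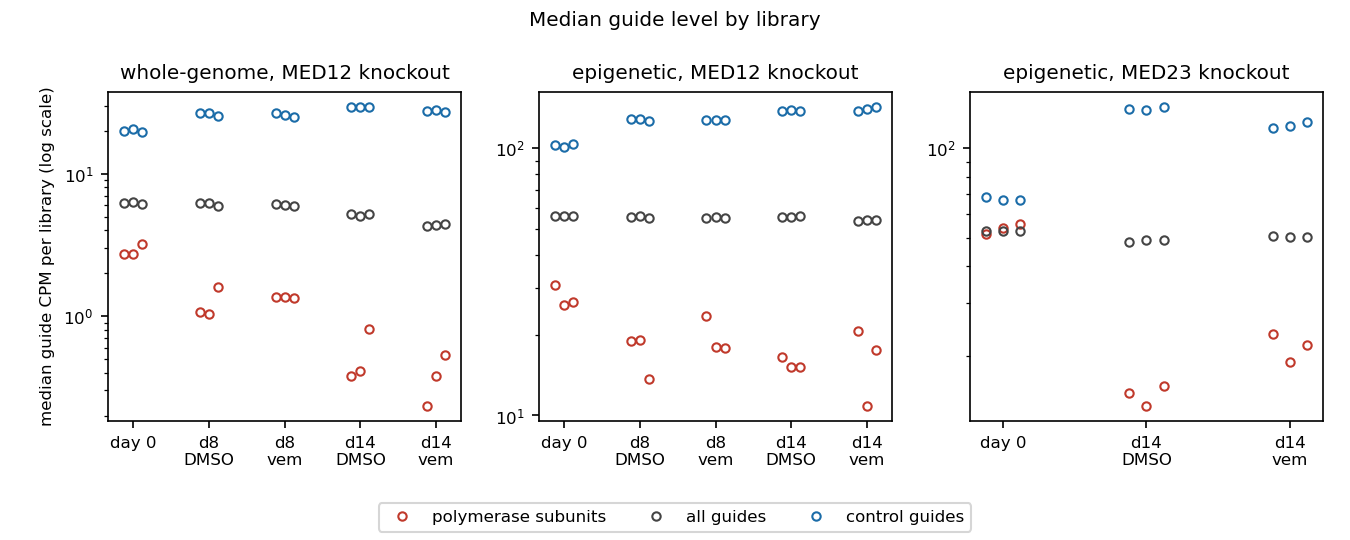
Median CPM of member guides, all guides and control guides in each library of the 3 screens, on a log axis, with 1 point per library. Member guides lie below all guides at day 0 in both MED12 knockout screens and level with them at day 0 in the MED23 knockout screen.

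The first comparison asked which subunits lost guides over 14 days of growth in DMSO in the whole-genome screen. By guide median and by gene score most members were lower at day 14 than at day 0, among them subunits of polymerases I, II and III, but no member passed the gene test and summed reads did not follow this direction for all of them. The change of a gene is given as the median log2 fold change over its guides. It is also given as the gene score, the mean over guides of log2 CPM, whose change has a standard error (SE) from the 3 libraries of each group. The median change was below 0 for 27 of 30 members, with a median of -1.16 over the members against 0.30 over all 19101 genes. Of the members' guides, 69.2% had a change below 0, against 41.8% of all guides. The gene test combined guide ranks from edgeR by robust rank aggregation (RRA) and adjusted p over all genes. It called 0 members, with 11 at an unadjusted p under 0.05, and called 0.12% of all genes as lower and 0.0314% as higher. Counts at an unadjusted p in this screen are given without the share of all genes past the same cut-off, so no result is read from them. A test from DESeq2, which gave an adjusted p for 26 of the members, also called 0. All 3 day-14 libraries lay below all 3 day-0 libraries in gene score for 24 of 30 members, against 30.1% of all genes. Only POLR3G had all 3 above, against 5.04% of all genes.

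The direction against day 0 differed with how the guides of a gene were combined and scaled. A sum gives most weight to the most abundant guide, and whether this made the difference was not tested. In each median given in this paragraph the members stood below all genes. The mean summed CPM stood above day 0 for 16 of 30 members at day 14 in DMSO, against 82.9% of all genes, and for 20 of 30 in vemurafenib, against 83.4%. Its median over the members was 111% of day 0 in DMSO and 148% in vemurafenib, against 175% and 210% over all genes. In DMSO POLR1C stood at 1570%, POLR2J at 753% and POLR2B at 460% of day 0, while POLR2L stood at 32.2%, POLR2F at 32.8% and POLR1A at 45.3%. On the log2 scale, the median over the members in DMSO was -0.44 when edgeR was fitted on summed counts (all genes 0.23) and -2.92 with the replicate block described further on (all genes -0.55).

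Polymerase III subunits were lower at day 14 by median and by score, but not all by summed reads, without passing the gene test. POLR3A, the largest subunit, had gene scores of 1.02, 0.03 and 0.38 at day 0 and -4.18, -4.55 and -1.68 at day 14 in DMSO. The groups did not overlap, and library 3 was the highest of the later group. Its median change was -3.49 and its score change -3.94 ± 0.95 (SE), and its guide 1 went from 167, 69 and 93 reads at day 0 to 0 in all day-14 DMSO libraries. POLR3B, the second-largest subunit, stood at -3.14 (-3.81 ± 1.36). POLR3C and POLR3F, which sit in the initiation subcomplex, stood at -2.26 (-5.31 ± 1.15) and -1.03 (-2.24 ± 0.93). POLR3D and POLR3E, which form a peripheral pair, stood at -0.19 (-2.09 ± 0.29) and -0.77 (-1.61 ± 1.08). POLR3K, a small subunit used in termination, had a median of -1.04 but a score change of -3.91 ± 1.54. Of these 7 genes, 6 had day-14 libraries wholly below day 0, and the exception was POLR3E. The lowest edgeR/RRA adjusted p among them was 0.485, that of POLR3A, so every one of these differences is a value that did not pass. In summed CPM POLR3A stood at 129%, POLR3D at 109% and POLR3K at 138% of day 0. POLR3B stood at 91.8%, POLR3C at 76.5%, POLR3E at 96.0% and POLR3F at 56.4%, and the median over all genes was 175%.

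The alternative forms of the polymerase III initiation subunit were described apart from the other genes of that enzyme. POLR3G, the form known from stem and tumour cells, had gene scores of 2.06, 2.31 and 2.35 at day 0, 2.79, 2.79 and 2.91 at day 8 in DMSO, and 3.36, 2.78 and 3.41 at day 14. The later groups lay above day 0 without overlap. Its median change at day 14 was 1.42 and its score change 0.94 ± 0.22, with 3 of 4 guides higher and an edgeR/RRA adjusted p of 0.429. POLR3GL, the form found in most tissues, had a median of -0.93 and a score change of -1.17 ± 0.57. No test compared the 2 forms.

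Polymerase I subunits were also lower at day 14 by median and by score, but not all by summed reads. POLR1A, the largest subunit, had gene scores of 0.42, 0.78 and 1.21 at day 0 and -2.27, -2.06 and -2.62 at day 14 in DMSO, with no overlap. Its median change was -1.98 and its score change -3.12 ± 0.28, with 4 of 4 guides lower and an edgeR/RRA adjusted p of 0.854. POLR1B, the second-largest subunit, stood at -1.28 (-2.13 ± 1.02) with overlapping libraries, and POLR1E, a peripheral subunit, at -1.44 (-2.08 ± 0.46) without overlap. Of the assembly pair shared with polymerase III, POLR1C stood at -3.82 (-3.46 ± 0.64) and POLR1D at -0.41 (-2.72 ± 1.41). The adjusted p of POLR1C was 0.525 by edgeR/RRA, and those of the other 4 genes were higher. In summed CPM POLR1A stood at 45.3%, POLR1B at 45.7% and POLR1D at 85.3% of day 0, while POLR1E stood at 179% and POLR1C at 1570%. The median over all genes was 175%.

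The 2 largest polymerase II subunits differed in sign by median. POLR2A, the catalytic subunit with the C-terminal tail, had a median of -2.85 and a score change of -3.88 ± 1.22. POLR2B, its partner in the active site, had a median of 1.63, while its score change was -0.76 ± 1.50. Gene scores of POLR2B were 2.02, 2.13 and 2.70 at day 0 and -1.32, 2.22 and 3.68 at day 14, so library 1 was low and library 3 high. Its guide 3 had 1332, 1882 and 1897 reads at day 0 and 4343, 2686 and 4642 at day 14, and its guide 4 had 380, 263 and 570 at day 0 but 1, 5 and 3547 at day 14. The median and the score can differ in sign, since a fold change uses the mean counts of a group and the score averages log values.

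The remaining polymerase II subunits were lower by median and by score, but not all by summed reads. POLR2C, which with POLR2J forms the assembly pair of this enzyme, had gene scores of 1.48, 0.67 and 1.45 at day 0 and -3.05, -4.19 and -2.89 at day 14. The groups did not overlap, and all 4 guides were lower, with a median change of -3.94, a score change of -4.58 ± 0.49 and an edgeR/RRA adjusted p of 0.583. POLR2J stood at -0.70 (-2.83 ± 0.77). POLR2D and POLR2G, which form the stalk, had medians of -0.49 and -0.53 beside score changes of -3.37 ± 1.16 and -3.12 ± 1.26. POLR2I, a small subunit near the cleft, stood at -3.25 (-2.95 ± 0.60). In summed CPM POLR2C stood at 46.1% of day 0, while POLR2D stood at 343%, POLR2G at 185%, POLR2I at 333% and POLR2A at 153%. The median over all genes was 175%, so POLR2A lay below it and POLR2G near it. POLR2J2, POLR2J3 and POLR2M had medians of -0.30, -1.82 and -0.33.

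Among subunits of all 3 polymerases, POLR2F came nearest to the threshold in DMSO. Its gene scores were 1.92, 2.22 and 2.46 at day 0 and -0.91, -0.23 and -1.19 at day 14, without overlap, with a median change of -1.61, a score change of -2.97 ± 0.32 and an edgeR/RRA adjusted p of 0.387. POLR2L, a small zinc-binding subunit, had a score change of -4.91 ± 0.82 and a median of -2.09. POLR2H stood at -1.32 (-2.09 ± 0.22), POLR2E at -0.67 (-2.84 ± 1.44), and POLR2K at 0.49 by median and -1.60 ± 0.11 by score. Again the median and the score of POLR2K differ in sign. The whole class was lower in score, and POLR2E was the gene whose libraries overlapped day 0.

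**Figure D2:**
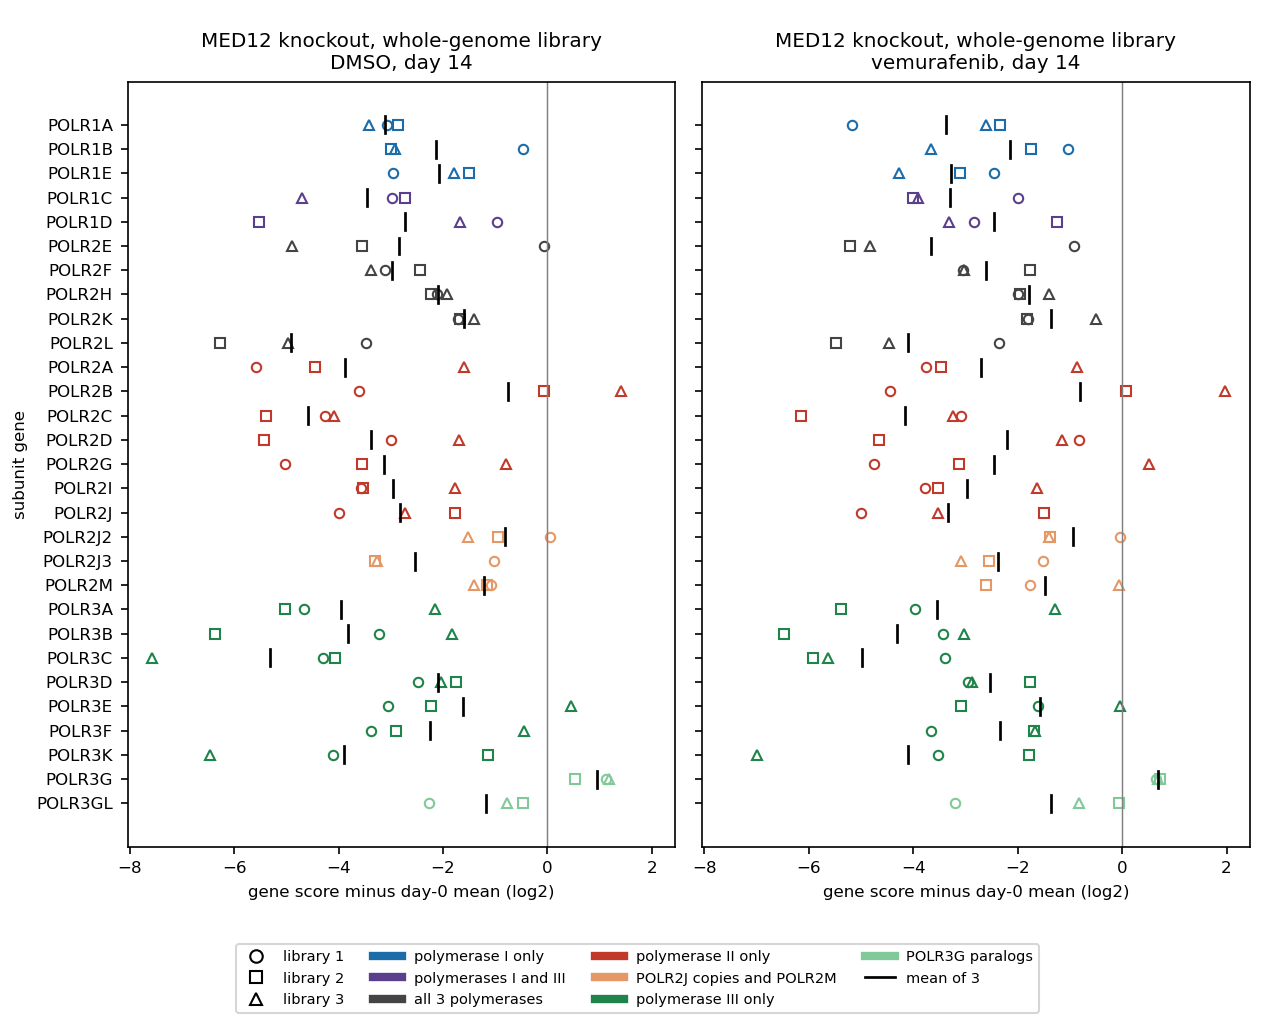
Gene score minus the mean of the 3 day-0 libraries for the members in the whole-genome screen at day 14, in DMSO and in vemurafenib, ordered by class, with 1 point per library in log2 units. Points of POLR3G lie above 0 in both conditions, points of POLR2C lie below 0 in both, and points of POLR2B spread to both sides.

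The libraries of this screen carry replicate numbers, and libraries of the same number deviated together in MED12 knockout cells. With the replicate number as a block, the edgeR/RRA test called POLR2L lower at day 8 in DMSO, with a median change of -4.80 and an adjusted p of 0.001665, where 0.513% of all genes were called lower. On summed counts with the same block POLR2L stood at -2.43 and did not pass (edgeR adjusted p = 0.996). A test of the summed counts of each gene with the same block, chosen after seeing the data, called 3 members at day 14 in DMSO by edgeR, POLR2F and POLR2B among them. POLR2F fell by 2.31 (adjusted p = 0.02648), where 3.02% of all genes were called lower. POLR2B rose by 1.51 (adjusted p = 0.02259), where 1.71% of all genes were called higher. These calls are absent without the block, and those on summed counts are absent from the edgeR/RRA test with it.

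Members were already lower at day 8 in DMSO. The median over the members was -0.75, against 0.16 over all genes, and 27 of 30 members had a median below 0. Neither edgeR/RRA (0 members, 9 at an unadjusted p under 0.05) nor DESeq2 (0) called a member, while edgeR/RRA called 0.236% of all genes lower and 0.0262% higher. In gene score, 19 members lay wholly below day 0, against 18.4% of all genes, and POLR3G lay wholly above, against 4.88%. POLR3B stood at -2.64 (score change -2.92 ± 0.67 SE), POLR2C at -2.11 (-2.59 ± 0.65) and POLR1A at -1.36 (-2.26 ± 0.32). POLR2L had gene scores of -2.81, -3.38 and -3.91, all below its day-0 values of 0.47, 0.77 and 0.68.

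From day 8 to day 14 in DMSO the median over the members was -0.32, against 0.16 over all genes, and on summed counts it was 0.13, against 0.15. By edgeR/RRA 0 members passed, with 4 at an unadjusted p under 0.05, DESeq2 called 0, and edgeR/RRA called 0.0262% of all genes lower and 0.0157% higher. For 6 members (POLR1A, POLR2C, POLR2H, POLR2K, POLR2M and POLR3D) the day-14 libraries lay wholly below the day-8 libraries, against 7.62% of all genes. Of these, POLR2C moved most, with a score change of -1.98 ± 0.72.

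Members were also lower in vemurafenib than at day 0. Comparisons of both arms use the same 3 day-0 libraries, so their values are given side by side. At day 8 in vemurafenib the median over the members was -0.64, against 0.14 over all genes, and 18 members lay wholly below day 0, against 17.6% of all genes, and 1, POLR3G, wholly above, against 5.0%. With edgeR/RRA 0 members were called (7 at an unadjusted p under 0.05), beside 0.152% of all genes lower and 0.0419% higher, and DESeq2 called 0 members. With the replicate block, POLR2L fell by 4.24, with an edgeR/RRA adjusted p of 0.0184, where 0.309% of all genes were called lower. It was not called on summed counts with the block (-1.81, edgeR adjusted p = 0.9997).

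After 14 days in vemurafenib the median over the members was -1.27, against 0.27 over all genes, and 21 members had a median below 0. On summed counts the median over the members was -0.17 (all genes 0.34), and with the replicate block -2.73 (all genes -0.61). Again edgeR/RRA called 0 members, with 3 at an unadjusted p under 0.05 (POLR1E and POLR3A among them), and called 0.0157% of all genes lower and 0.0366% higher. DESeq2 called 0 members. In gene score 22 members lay wholly below day 0, against 33.6% of all genes, and POLR3G lay wholly above, against 4.22%. POLR3A stood at -4.29 (score change -3.55 ± 1.23 SE) and POLR1E at -3.27 (-3.27 ± 0.55), with edgeR/RRA adjusted p of 0.578 and 0.629. POLR3G stood at 0.75 (0.69 ± 0.10). The summed counts with the replicate block, chosen after seeing the data, called 7 members lower by edgeR, where 9.79% of all genes were called lower. Among these were POLR1A, POLR1B, POLR2C, POLR2E, POLR3F and POLR3K, with changes from -3.21 for POLR3K to -2.06 for POLR3F. POLR2B rose by 1.09 (edgeR adjusted p = 0.0316), where 7.86% of all genes were called higher.

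By class, the polymerase I, II and III subunits were each lower in mean gene score than at day 0 in both arms. The mean gene score of the polymerase II class was 0.72, 0.46 and 0.81 at day 0, -3.48, -2.79 and -0.95 at day 14 in DMSO, and -3.00, -2.53 and -0.47 in vemurafenib. The third library was the highest of its group in both arms. The polymerase III class stood at 1.31, 1.20 and 1.40 at day 0, -2.46, -2.34 and -1.69 in DMSO, and -2.01, -2.58 and -1.75 in vemurafenib. The polymerase I class stood at 1.16, 0.72 and 1.43 at day 0, -1.07, -1.35 and -1.61 in DMSO, and -1.78, -1.30 and -2.40 in vemurafenib. At day 14 every library of these classes lay below day 0. In DMSO the range of polymerase I lay above that of polymerase III, and that of polymerase II spanned both, while in vemurafenib the ranges overlapped. All genes together stood at 2.48 to 2.51 at day 0 and 1.55 to 1.66 at day 14 in DMSO, so a smaller downward step is shared by all genes.

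The medians of median change at day 14 in DMSO were -1.65 for polymerase III, -1.44 for polymerase I, -2.12 for the assembly pair of polymerases I and III, -1.32 for the subunits of all 3 polymerases and -0.70 for polymerase II. In vemurafenib they were -2.55, -1.29, -2.13, -1.20 and -1.29 in the same order. Differences between classes were not tested, and the classes hold 2 to 8 genes each. For comparison, cytosolic ribosomal proteins had a median of -1.48 in DMSO, with 2 of 81 genes called lower by edgeR/RRA, and proteasome subunits had -0.86, with 0 of 40 called and 10 at an unadjusted p under 0.05.

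**Figure D3:**
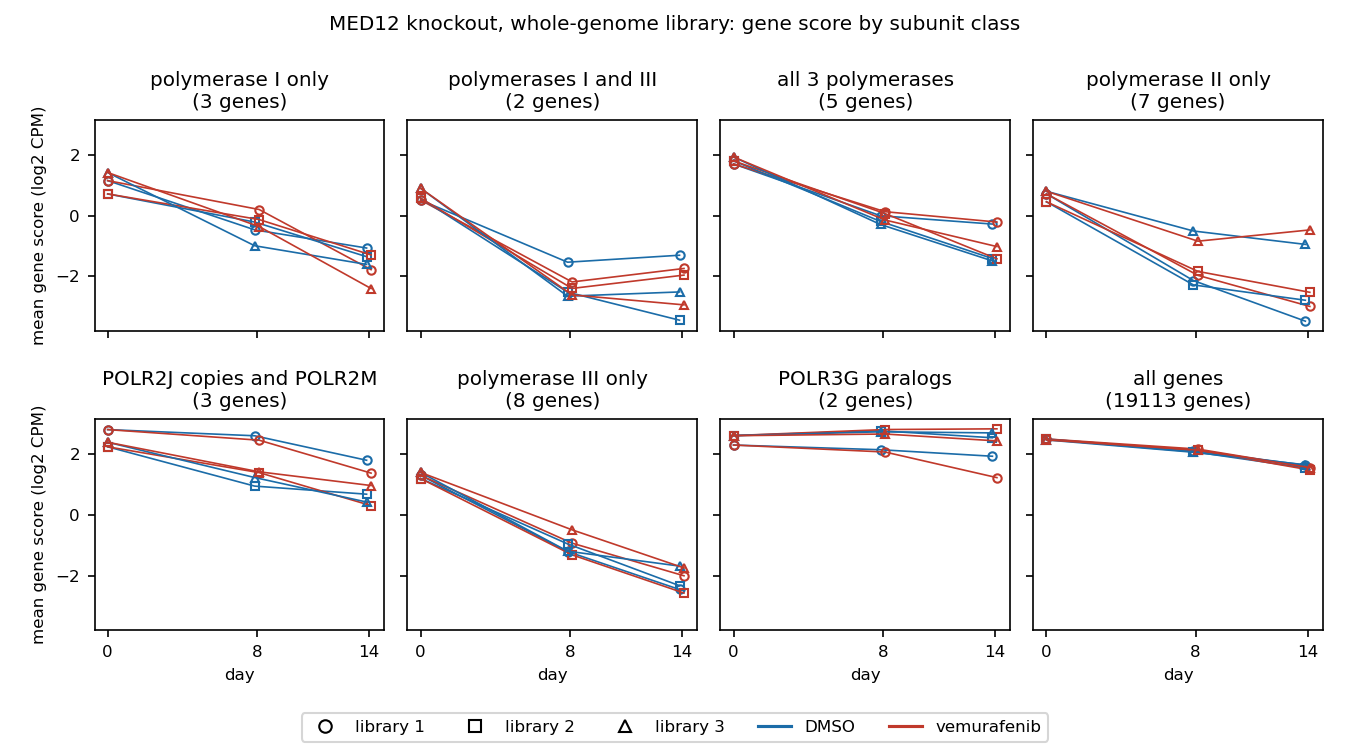
Mean gene score (log2 CPM) over the members of each class and over all genes at days 0, 8 and 14 in the whole-genome screen, with 1 point per library and separate colours for DMSO and vemurafenib. The polymerase I, II and III classes lie below day 0 in every day-14 library, the POLR3G pair spreads around its day-0 level, and the points of both arms overlap.

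The direct comparison of vemurafenib with DMSO asked whether drug altered the loss of these guides. No polymerase subunit passed at either day. At day 8 the median over the members was 0.10, against 0.02 over all genes. The edgeR/RRA test called 0 members, with 6 at an unadjusted p under 0.05, and called 0.0157% of all genes as lower and 0.0105% as higher. The lowest p was that of POLR3A, at 0.79 by median (score change 1.57 ± 0.75 SE, overlapping libraries) with an edgeR/RRA adjusted p of 0.366. POLR1A was the 1 member whose vemurafenib libraries lay wholly above DMSO, at a score change of 1.03 ± 0.37, against 1.04% of all genes. Its scores in vemurafenib at day 14 were -4.37, -1.53 and -1.80, which overlapped those in DMSO.

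By day 14 the median over the members was 0.10 between vemurafenib and DMSO, against 0.06 over all genes. With edgeR/RRA 0 members were called, 0 of them at an unadjusted p under 0.05, and 0.0% of all genes in either direction, and DESeq2 called 0 members at both days. No member's libraries separated, against 0.9% of all genes wholly higher and 1.9% wholly lower. Medians ran from -1.83 for POLR1E to 1.89 for POLR2G, whose score change was 0.67 ± 1.99. For the change in the drug effect between days 8 and 14, the edgeR/RRA test called 0 members, with 1 at an unadjusted p under 0.05, and 0.0% of all genes, and DESeq2 called 0. The SEs of the day-14 score changes, computed without pairing by library number, ran from 0.205 for POLR3G to 2.41 for POLR2B. Same-numbered libraries of the later groups deviated together, with correlations of 0.686 to 0.842. For POLR2B, scores of libraries 1, 2 and 3 were -1.32, 2.22 and 3.68 in DMSO and -2.16, 2.36 and 4.24 in vemurafenib. These SEs therefore do not give the error of a paired comparison, and the smallest detectable drug effect was not tested.

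Many member guides were abundant in a single library of a group. As a description chosen after seeing the data, guides were counted for which 1 library held at least 90% of the CPM of its group. Of the 120 member guides, 1 met this at day 0, 23 at day 8 in DMSO and 44 at day 14 in DMSO, or 36.7%, against 16.2% of all guides. The count was also 44 at day 14 in vemurafenib, against 21.8% of all guides. Of the 28 member guides that met it in both arms at day 14, 27 had the same library number in both, a share of 96.4%, against 93.3% of all such guides. A further 14 member guides had 0 reads in every day-14 DMSO library, or 11.7%, against 1.73% of all guides.

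Guide 3 of POLR1C shows the pattern. It had 538, 480 and 341 reads at day 0, 5731, 274 and 13 at day 8 in DMSO, and 14537, 81 and 2 at day 14. In vemurafenib it had 5298, 183 and 22 at day 8 and 12028, 2 and 15 at day 14. Library 1 was high and libraries 2 and 3 were low in both arms. Guide 1 of the same gene had 73, 91 and 122 reads at day 0 and 0 in all 12 later libraries.

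Other members had a guide of the same kind in another library. Guide 2 of POLR2J had 247, 397 and 69 reads at day 0, 2, 3678 and 3 at day 14 in DMSO and 0, 1973 and 0 in vemurafenib, high in library 2. Guide 2 of POLR3K had 119, 330 and 283 reads at day 0, 0, 3652 and 1 in DMSO and 0, 1201 and 0 in vemurafenib, again in library 2. Guide 2 of POLR2A had 199, 204 and 325 reads at day 0, 18, 21 and 1050 in DMSO and 14, 11 and 5063 in vemurafenib, high in library 3. In each case the other libraries were at or near 0 or below their day-0 level, and the same library number was high in DMSO and in vemurafenib. Their part in the gene-level results was not tested beyond leaving out each library in turn, which gave 0 calls among the members for each comparison with day 0 in this screen.

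**Figure D4:**
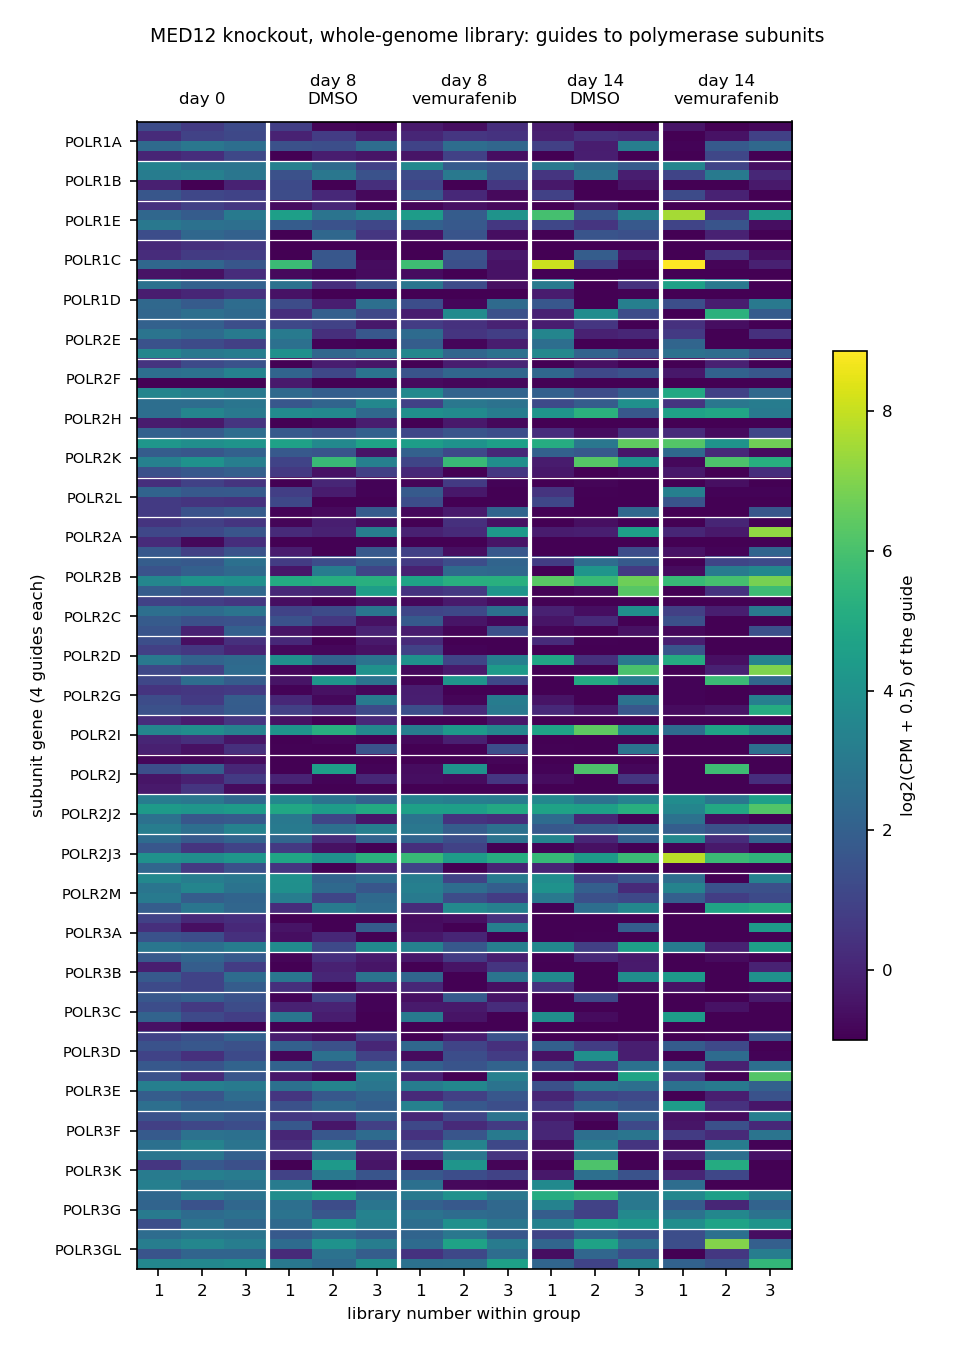
Heat map of log2(CPM + 0.5) for the member guides (rows, by gene and class) in the 15 whole-genome libraries (columns, by group). Most rows darken from day 0 to day 14, and isolated bright cells at day 14 sit in 1 library of a group, mostly at the same library number in DMSO and in vemurafenib.

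In the epigenetic screen of MED12 knockout cells, POLR2A was the most depleted of the 3 polymerase II subunits, and none passed the gene test. Gene scores of POLR2A were 4.47, 4.42 and 4.65 at day 0, 2.85, 1.84 and 2.45 at day 14 in DMSO and 2.83, 1.92 and 2.36 in vemurafenib. Both day-14 groups lay below day 0 and overlapped each other. In DMSO all 10 guides were lower, with a median of -1.37, a score change of -2.13 ± 0.30 SE and an edgeR/RRA adjusted p of 0.0871. Without the first day-14 DMSO library the median was -1.67 and the edgeR/RRA adjusted p was 0.008232. In vemurafenib the median was -1.94, with an adjusted p of 0.0989 by edgeR/RRA, while DESeq2 called it lower (adjusted p = 0.04755), where DESeq2 called 1.61% of all genes lower.

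POLR2D and POLR2I were lower by smaller amounts in gene score, while their mean summed CPM did not lie below day 0. POLR2D scored 5.12, 5.01 and 5.26 at day 0 and 3.98, 4.32 and 4.54 at day 14 in DMSO, a change of -0.85 ± 0.18 with a median of -0.64 and an edgeR/RRA adjusted p of 0.35. POLR2I scored 4.86, 4.84 and 4.77 at day 0 and 4.14, 4.42 and 3.71 at day 14, a change of -0.73 ± 0.21 with a median of -0.32 and an edgeR/RRA adjusted p of 1. In vemurafenib the score changes were -0.99 ± 0.25 for POLR2D and -0.84 ± 0.39 for POLR2I, whose median was 0.12. In summed CPM POLR2D stood at 101% of day 0 in DMSO and 134% in vemurafenib, and POLR2I at 127% and 232%. POLR2A stood at 66.6% and 216%. The median over all genes was 129% in DMSO and 148% in vemurafenib. When edgeR was fitted on summed counts, the median over the 3 genes at day 14 in DMSO against day 0 was -0.30 (all genes 0.06). The guide medians gave -0.64 there. On summed counts this median was 0.63 in vemurafenib against day 0, where the guide medians gave -0.43. It was 0.71 for vemurafenib against DMSO at day 14, where they gave -0.01. Libraries of all 3 genes lay wholly below day 0 at day 8 in DMSO, at day 14 in DMSO and at day 14 in vemurafenib. Over all genes the shares were 34.5%, 37.1% and 37.3%, so such a separation is common in this screen.

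The edgeR/RRA test called 0 members in each comparison of this screen, with 2 at an unadjusted p under 0.05 at day 8 in DMSO, 1 at day 14 in DMSO and 1 at day 14 in vemurafenib. It called 4.93%, 2.42% and 0.987% of all genes lower and 2.96%, 2.78% and 2.24% higher in the same order, and DESeq2 called 0 members in each of these but the last. An unadjusted p under 0.05 was reached by 234, 180 and 150 of all 1115 genes in the same order. For vemurafenib against DMSO the edgeR/RRA test called 0 members at day 8 (1 at an unadjusted p under 0.05) and 0 at day 14 (0 under 0.05). It called 0.628% and 0.538% of all genes lower and 1.08% and 0.897% higher at these days, and DESeq2 called 0 members. Of all 1115 genes, 107 and 80 had an unadjusted p under 0.05 at these days. At day 14 the score changes between the arms were -0.01 ± 0.39 for POLR2A, -0.14 ± 0.29 for POLR2D and -0.11 ± 0.44 for POLR2I. For the change in the drug effect between days, edgeR/RRA called 0 members (0 at an unadjusted p under 0.05), beside 0.538% of all genes higher and 0.0% lower, and DESeq2 called 0.

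Single guides moved in opposite directions. Guide 10 of POLR2A fell by 3.17 at day 14 in DMSO (edgeR adjusted p = 0.0202) and guide 7 of POLR2D rose by 1.74 (edgeR adjusted p = 0.0372), among 30 guides, where 1.25% of all guides fell and 1.13% rose. Guide 7 of POLR2D stood at 60.5, 53.6 and 64.6 CPM at day 0, 115, 318 and 164 CPM in DMSO and 225, 309 and 162 CPM in vemurafenib, above day 0 in every library. In vemurafenib 3 guides fell and 2 rose at day 14, where 2.88% of all guides fell and 3.61% rose. With the replicate number as a block edgeR called 3 guides lower in DMSO and 9 in vemurafenib, where the same fit called 8.58% and 12.1% of all guides lower. Guide 2 of POLR2A stood at 84.9, 88.7 and 76.6 CPM at day 0 and at 1785, 8.93 and 29.9 CPM at day 14 in vemurafenib. With it, the summed CPM of POLR2A at day 14 in vemurafenib was 1889, 251 and 186, against 359 to 360 at day 0, high in library 1 and low in libraries 2 and 3.

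In MED23 knockout cells all 3 subunits were lower at day 14 in DMSO than at day 0, and 2 of them, POLR2I and POLR2D, passed the gene test. Gene scores of POLR2I were 5.89, 5.95 and 5.98 at day 0 and 2.24, 2.63 and 2.53 at day 14, and those of POLR2D were 5.94, 6.01 and 6.00 at day 0 and 4.55, 4.48 and 4.73 at day 14. Neither gene's groups overlapped. POLR2I fell by a median of 2.70, with a score change of -3.47 ± 0.12 SE, 9 of 10 guides lower and an edgeR/RRA adjusted p of 0.0284. POLR2D fell by a median of 1.24, with a score change of -1.40 ± 0.08, 8 of 10 guides lower and an edgeR/RRA adjusted p of 0.0357. The same test called 12.6% of all genes lower and 5.56% higher.

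POLR2A did not pass in this comparison, though its summed count was the most reduced of the 3. Its scores were 5.47, 5.55 and 5.57 at day 0 and 2.73, 3.23 and 2.33 at day 14, without overlap, and 10 of 10 guides were lower, with a median of -1.74 and an edgeR/RRA adjusted p of 0.0809. Summed CPM of POLR2A went from 545 ± 14.8 (SD, n = 3) at day 0 to 145 ± 11.3 at day 14, which is 26.5% of day 0. That of POLR2D went from 753 ± 20.4 to 463 ± 12.9, or 61.5%, and that of POLR2I from 663 ± 19.0 to 388 ± 60.5, or 58.5%. On summed counts edgeR called POLR2A lower, by 1.95 with an adjusted p of 1.006e-06, where 30.4% of all genes were called lower. It also called POLR2D (-0.73, edgeR adjusted p = 0.0003756) and POLR2I (-0.81, edgeR adjusted p = 0.009773) lower on summed counts. Over all genes 49.1% had libraries wholly below day 0, as these 3 genes did.

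The calls of POLR2D and POLR2I lie close to the threshold. Both were lost when libraries were scaled on the control guides, with medians of -2.27 and -3.73 and edgeR/RRA adjusted p of 0.1376 and 0.2979. That scaling moved the median of all genes by -1.03, and the cause of the higher adjusted p was not tested. Both were also lost when RRA used a smaller share of the guides. The POLR2D call was lost without the second (edgeR/RRA adjusted p = 0.0592) or the third (0.08436) day-14 DMSO library. The POLR2I call was lost without the second (edgeR/RRA adjusted p = 0.07614) or the third (0.09514) day-0 library or the first day-14 DMSO library (0.1938), and by DESeq2 (adjusted p = 0.07028).

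Guides within each gene were unequal. Of the 30 guides, 20 fell and 3 rose in DMSO by edgeR, where 23.8% of all guides fell and 9.34% rose. Guide 5 of POLR2I went from 83.2, 83.1 and 93.5 CPM to 5.02, 2.97 and 4.47 CPM, and guide 7 of the same gene from 112, 135 and 114 CPM to 314, 248 and 323 CPM. Guide 7 thus held most of the CPM left on POLR2I at day 14, while the other guides of the gene were lower. The other guides that rose were guides 6 and 7 of POLR2D, and guide 7 of POLR2D also rose in MED12 knockout cells.

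In vemurafenib the same 3 subunits were lower than at day 0, and POLR2D passed. POLR2D scored 4.95, 5.37 and 4.98 in vemurafenib, and it fell by a median of 1.22, with a score change of -0.88 ± 0.14 SE and an edgeR/RRA adjusted p of 0.00976, where 10.2% of all genes were called lower and 6.01% higher. POLR2A scored 3.90, 3.72 and 3.84, with a median of -1.89 and an edgeR/RRA adjusted p of 0.0649, and DESeq2 called it lower (adjusted p = 0.03361), where DESeq2 called 10.8% of all genes lower. POLR2I scored 4.64, 4.65 and 4.86, with a median of -1.45 and an edgeR/RRA adjusted p of 0.0986. None of the 3 overlapped day 0, against 39.1% of all genes wholly lower. At the level of guides 13 fell and 3 rose by edgeR, where 13.3% of all guides fell and 8.77% rose.

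Against DMSO at day 14, all 3 subunits stood higher in vemurafenib without passing the gene test. The edgeR/RRA test called 0 members, with 1 at an unadjusted p under 0.05, and DESeq2 called 0, while edgeR/RRA called 7.8% of all genes higher and 2.96% lower. An unadjusted p under 0.05 was reached by 220 of all 1115 genes. POLR2I had a median of 1.63 and a score change of 2.25 ± 0.14 SE, with 9 of 10 guides higher and an edgeR/RRA adjusted p of 0.245. Without the second or the third day-14 DMSO library this adjusted p was 0.01626 or 0.02309 by edgeR/RRA. POLR2A had a median of 0.66 (1.06 ± 0.27) and POLR2D of 0.25 (0.52 ± 0.15). Libraries of all 3 lay wholly above DMSO, against 36.7% of all genes. On summed counts edgeR called POLR2A higher, by 0.38 (adjusted p = 0.01921), where 18.5% of all genes were called higher.

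By guide, 7 of the 30 rose in vemurafenib against DMSO by edgeR, where 7.98% of all guides rose, and another 7 had a change below 0 that did not pass. Guide 5 of POLR2I stood at 5.02, 2.97 and 4.47 CPM in DMSO and 28.0, 35.2 and 37.1 CPM in vemurafenib. Guide 4 of POLR2A stood at 3.02, 0.853 and 0.756 CPM in DMSO and 12.6, 6.79 and 5.17 CPM in vemurafenib. Both were higher in vemurafenib in every library and below their day-0 levels. Ribosomal proteins and proteasome subunits, measured in the same libraries, had medians of 0.98 and 1.13 for vemurafenib against DMSO, against 0.09 over all genes.

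**Figure D5:**
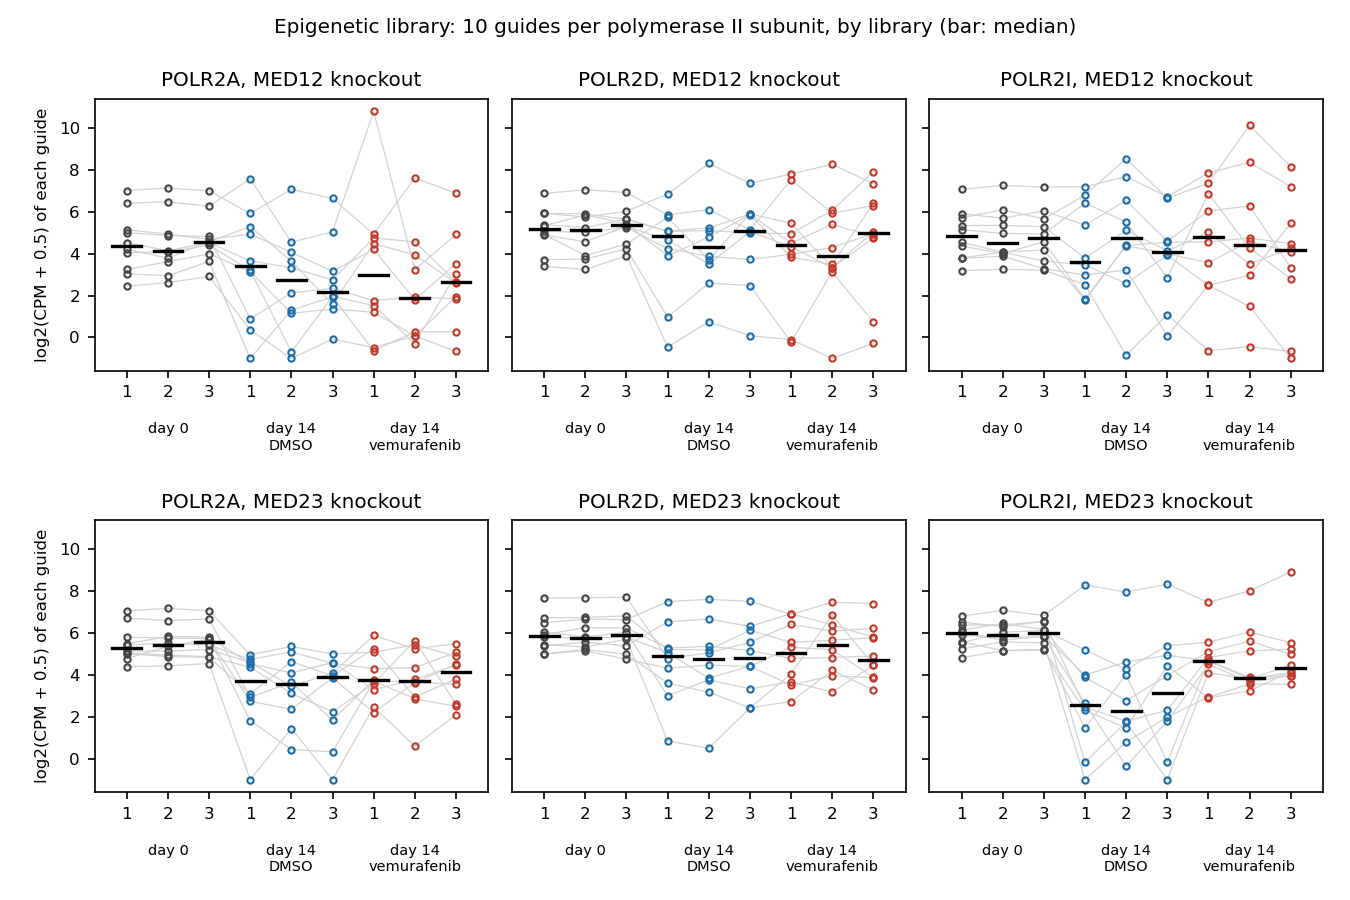
Level of each of the 10 guides of POLR2A, POLR2D and POLR2I, as log2(CPM + 0.5), in every day-0 and day-14 library of the epigenetic screens in MED12 (top) and MED23 (bottom) knockout cells, with 1 point per guide, a line joining the points of a guide and a bar at the median of each library. In MED23 knockout cells the bars of all 3 genes lie lower at day 14 than at day 0, and those of POLR2I lie lower in DMSO than in vemurafenib.

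The same 30 guides were set side by side in both knockouts. In DMSO, 24 were below day 0 at day 14 in both screens, 3 were above in both, and 3 were below in MED23 knockout cells alone. The fall was larger in MED23 knockout cells for 21 of the 30. For vemurafenib against DMSO 13 guides were above 0 in both screens, 6 below in both, 10 below in MED12 knockout cells alone and 1 below in MED23 knockout cells alone. The difference between knockouts was not tested, since day-0 levels, vemurafenib doses and the spread between libraries all differ between these screens.

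Factors that work with the polymerases were counted from a list of 89 other genes in the whole-genome library, which holds the remaining subunits, initiation and elongation factors, and the mitochondrial enzyme. At day 14 in DMSO 62 of 89 had a median below 0, and the median over the list was -0.56, against -1.16 for the subunits. The edgeR/RRA test called 0 of 89 in every comparison, with 20 at an unadjusted p under 0.05 at day 8 in DMSO and 19 at day 14, and DESeq2 called 0 of the 83 it tested. These counts at an unadjusted p again stand without the share of all genes, so no result is read from them. With the replicate block, CCNH, the cyclin of the TFIIH kinase, fell by a median of 3.30 at day 8 in DMSO (edgeR/RRA adjusted p = 0.02245), and RPAP2, a phosphatase of the polymerase II tail, by 4.02 (edgeR/RRA adjusted p = 0.02854). The same fit called 0.513% of all genes lower. CCNH also fell with the block at day 8 in vemurafenib, by 4.09 (edgeR/RRA adjusted p = 0.002103), where 0.309% of all genes were called lower. On summed counts with the block none of these passed. CCNH stood at -2.35 in DMSO (edgeR adjusted p = 0.7913) and -2.42 in vemurafenib (0.6707), and RPAP2 at -3.46 in DMSO (0.8763). At day 14 in DMSO that fit, chosen after seeing the data, called 6 of the 89 lower and 1 higher, where 3.02% of all genes were called lower and 1.71% higher. At day 14 in vemurafenib it called 19 lower and 6 higher, where 9.79% of all genes were called lower and 7.86% higher. Without the block, summed counts called 6 lower and 1 higher in vemurafenib, and the share of all genes is not given.

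Subunits under other symbols and the related enzymes did not pass the edgeR/RRA test either. At day 14 in DMSO CRCP, a polymerase III subunit, stood at -2.98 (score change -4.36 ± 1.28 SE), with an edgeR/RRA adjusted p of 0.767. The polymerase I subunits CD3EAP and TWISTNB stood at -2.54 (-4.77 ± 1.08) and -1.03 (-3.04 ± 0.83), and ZNRD1 at 0.84 (-1.29 ± 1.85). POLRMT, the mitochondrial RNA polymerase, stood at -3.17 (-4.28 ± 0.86). MAF1, the repressor of polymerase III, stood at 0.16 (-1.76 ± 0.80), with overlapping libraries.

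The epigenetic library held 26 of these factors. In MED12 knockout cells GTF3C4, a subunit of the polymerase III factor TFIIIC, fell by a median of 0.95 at day 8 in DMSO (edgeR/RRA adjusted p = 0.0388), where 4.93% of all genes were called lower. At day 14 in DMSO it fell by 1.95 under the replicate block (edgeR/RRA adjusted p = 0.0463), where 5.56% of all genes were called lower. On summed counts GTF3C4 did not pass at day 8 (-0.94, edgeR adjusted p = 0.6755), nor with the block at day 14 (-1.14, edgeR adjusted p = 0.1063). In MED23 knockout cells at day 14 in DMSO, 23 of the 26 had a median below 0, against 519 of all 1115 genes. By edgeR/RRA 4 of the 26 were called lower, near the share of all genes called lower, 12.6%. The 4 were CDK7 (-2.07, edgeR/RRA adjusted p = 0.00285) and ERCC2 (-2.25, 0.00588), which belong to TFIIH, CDK9 (-2.34, 0.0185), the elongation kinase, and TAF1 (-1.50, 0.0252), the largest TFIID subunit. With the replicate block edgeR/RRA also called GTF3C4 (-2.55, adjusted p = 0.02053) and SUPT6H, an elongation factor (-2.13, 0.03013), but not TAF1 (0.3335). The share of all genes called with the block is not given. With the smaller RRA share 0 of 26 were called and with control-guide scaling 1, CDK7, while edgeR on summed counts called 19, where it called 30.4% of all genes lower. In vemurafenib at day 14 a set of 4 others fell against day 0 by edgeR/RRA, namely SUPT16H (-2.72, adjusted p = 0.0117), RTF1 (-1.76, 0.0119), SSRP1 (-1.32, 0.0329) and TAF8 (-0.90, 0.0351), where 10.2% of all genes were called lower. With the smaller RRA share or with control-guide scaling 0 of 26 were called, and edgeR on summed counts called 16, where it called 26.6% of all genes lower. SUPT16H and SSRP1 form the histone chaperone FACT, and RTF1 works with the elongating polymerase. For vemurafenib against DMSO 0 of 26 were called by edgeR/RRA and 0 by DESeq2, with a median of 0.49 over the list. On summed counts edgeR called 8 of them higher, where it called 18.5% of all genes higher. ERCC2 was called higher by edgeR/RRA with the replicate block (1.33, adjusted p = 0.003485) and with control-guide scaling (1.28, adjusted p = 0.04672). The shares of all genes called with that block or that scaling are not given. By edgeR/RRA 5 of 26 had an unadjusted p under 0.05, beside 220 of all 1115 genes, a similar share.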

How the data were processed

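The deposited values are raw counts of reads for each guide, in 3 tables with 1 screen each. Reads were demultiplexed with bcl2fastq, aligned with HISAT2 and counted with HTSeq, per the submitters' processing notes. The versions, the settings and the guide reference were not given in the sources used here. Guide sequences and coordinates were not used. PCR without molecular identifiers can inflate counts of single guides.

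In R 4.3.3, guides were kept with edgeR 4.0.16 (filterByExpr, minimum count 10, minimum total 15), scaled with TMM and fitted with 1 mean per group over all libraries of a table. The quasi-likelihood test of each guide was 2-sided. Guide ranks were combined per gene by robust rank aggregation (alpha 0.25, exact null), with 2 times the smaller p of both directions, with Benjamini-Hochberg adjustment across the genes that kept 3 or more guides, and a threshold of 0.05. Gene scores are means over the tested guides of log2 CPM, with 0.5 added to each read count before scaling. A guide without reads thus takes a value set by the scaled size of its library. In the whole-genome libraries of day 14, 31 to 44 of the 120 member guides had 0 reads. The effect of this on score changes was not tested. The steps were tested on simulated counts with independent libraries and a fixed dispersion for each library type. That simulation held neither paired libraries nor guides abundant in a single library, so it does not show how the steps perform under those conditions.

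The members are all genes with the stated names. 1 member is counted in totals and classes and is not reported here by itself. The other genes are POLRMT, CRCP and MAF1, further subunits under other symbols, and up to 4 genes that passed per list and comparison, by lowest adjusted p, and those called under the replicate block. Members and lists were chosen with earlier results of these data known. Replicate numbers in the labels pair the MED12 knockout libraries. Deviations of same-numbered libraries from their group means correlated at 0.463 to 0.636 (whole-genome) and 0.341 to 0.531 (epigenetic) between day-0 and later groups, and those of differently numbered libraries at -0.332 to -0.212 and -0.29 to -0.152. In MED23 knockout cells the numbers paired the libraries at most in part. Between day 0 and day 14, same-numbered libraries correlated at -0.169 to 0.324 (median 0.3) and differently numbered ones at -0.173 to 0.306 (median -0.152). Between the day-14 groups, same-numbered libraries correlated at -0.14 to 0.268 (median -0.125). Alternatives were other scaling (DESeq2's size factors, control guides), DESeq2 1.42.0 per guide, no filter on low counts, alpha 0.1, summed counts per gene, the replicate block, and leaving out each library. Calls per guide, and summed counts with the block, were added after seeing the data.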

Additional observations from a re-analysis of the deposited data

How the results depend on the processing

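Of 3904 values of single members under an alternative, 3865 kept their side of the threshold, 28 passed it only under the alternative, 11 passed it only in the original setting, and 0 called values changed direction. For the members called lower in the whole-genome screen, where the original count was 0, the replicate block gave 1 at day 8 in DMSO and 1 at day 8 in vemurafenib. Summed counts with the replicate block gave 2 at day 14 in DMSO and 7 at day 14 in vemurafenib. In the epigenetic screen of MED12 knockout cells (original count 0), DESeq2 gave 1 at day 14 in vemurafenib, and leaving out 1 library gave 0 to 1 at day 14 in DMSO. In MED23 knockout cells at day 14 in DMSO (original count 2), control-guide scaling and alpha 0.1 gave 0, DESeq2 and the replicate block gave 1, summed counts gave 3 with and without the block, and leaving out 1 library gave 1 to 2. In vemurafenib there (original count 1), DESeq2, summed counts, the replicate block, and both of the latter together gave 2, and leaving out 1 library gave 1 to 2. For vemurafenib against DMSO there (original count 0), summed counts gave 1 with and without the replicate block, and leaving out 1 library gave 0 to 1. Among guides called lower at day 14 in MED12 knockout cells, the DMSO count of 1 became 4 with control-guide scaling, 4 with DESeq2, 3 with the replicate block and 0 to 1 without 1 library. The vemurafenib count of 3 became 6, 6, 9 and 1 to 4 in the same order. The MED23 knockout count of 13 in vemurafenib became 20 with control-guide scaling and 8 to 14 without 1 library, and the count of 7 guides higher in vemurafenib than in DMSO became 4 to 10 without 1 library. With the replicate block, 8.58% of all guides in DMSO and 12.1% in vemurafenib were called lower in MED12 knockout cells. For the other settings the share of all guides called is not given, so no result about the members is read from these guide counts. The cause of these shifts was not tested. Over all genes, the replicate block moved the calls at day 8 in the whole-genome screen from 50 to 110 in DMSO and from 37 to 69 in vemurafenib. Control-guide scaling moved the median of all genes at day 14 in DMSO by -0.67 in the whole-genome screen, -0.42 in the epigenetic screen of MED12 knockout cells and -1.03 in MED23 knockout cells, and the members' median in the latter was then -2.77. In the whole-genome screen at day 14, the members' median ran from -2.92 with the replicate block to -0.44 on summed counts in DMSO (original -1.16), and from -2.73 to -0.17 in vemurafenib (original -1.27). At day 8 it ran in the same order from -2.14 to -0.39 in DMSO (original -0.75) and from -2.15 to -0.26 in vemurafenib (original -0.64). The replicate block in MED23 knockout cells, where the numbers pair the libraries at most in part, took the POLR2D call in DMSO to an edgeR/RRA adjusted p of 0.05785 and POLR2A in vemurafenib to 0.01676.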
